A study of Mus musculus with 6 samples.

Results

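Transcripts of the TAM receptor kinases (Tyro3, Axl and Mertk), of the proteins that bridge them or integrins to dying cells, and of the engulfment adaptors behind them were measured in mouse bone marrow-derived macrophages exposed to medium conditioned by tumour cells. The members were the 9 rows of the deposited gene table, out of 55421, whose GRCm38 symbol was Axl, Mertk, Tyro3, Gas6, Pros1, Mfge8, Elmo1, Dock1 or Gulp1. All groups were wild type (WT) macrophages grown in RPMI-1640 with M-CSF (20 ng/mL), the growth factor that drives macrophage differentiation, fetal bovine serum (FBS, 10%) and the antibiotics penicillin/streptomycin. The untreated group (3 wells) stayed in that medium, and the conditioned-medium group (3 wells) received equal volumes of it and of the medium of LL-2 tumour cells (50% LL-2 conditioned medium), which are a Lewis lung carcinoma line. Wells were lysed after 24 h. The labels give no strain, sex or age and do not say that wells came from separate animals, and the spread behind each p-value is that between wells, possibly technical alone. Medium conditioned by other cells was not analysed here, and the share of fresh medium differed between the groups along with the tumour cell products.

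TAM kinases recognise dying cells indirectly. Gas6 and protein S (Pros1) carry vitamin K-dependent domains that bind phosphatidylserine on the apoptotic cell and a tail that binds the receptor. Gas6 binds all TAM kinases, whereas protein S binds Mertk and Tyro3 with little action on Axl. In macrophages Mertk is the TAM receptor best known for apoptotic cell uptake (efferocytosis), and Axl is known as a receptor induced by interferon that restrains inflammatory signalling. Mfge8 (lactadherin) is a separate bridge, from phosphatidylserine to integrins that contain the alpha v chain. Elmo1 and Dock1 form an exchange factor that activates the small GTPase Rac to drive engulfment, and Gulp1 is an adaptor that binds the tails of uptake receptors such as Lrp1.

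Library totals ran from 24179548 to 25916709 counts in untreated wells and from 28447825 to 30040682 in conditioned-medium wells. Levels are given as CPM (counts scaled to the library total and by TMM), and changes are log2 fold changes, conditioned medium minus untreated, with a standard error (SE) and an adjusted p from edgeR's quasi-likelihood test over 13853 tested genes. Macrophage markers were abundant, with a summed level of 51180 to 60450 CPM over 8 genes in untreated wells and 57400 to 62010 CPM in conditioned-medium wells. Lyz2 alone held most of that sum, with means of 45410 CPM in untreated and 49290 CPM in conditioned-medium wells. Markers of fibroblasts and other stromal cells, which can also express TAM ligands, summed to 17.3 to 71.5 CPM over 9 genes in untreated and 34.4 to 103 CPM in conditioned-medium wells, with 0 of 7 tested called. With the replicate number as a block 5 of these 7 were higher, Col1a2, Col3a1, Pdgfra, Pdgfrb and Cxcl12, with 0 lower, where 36.3% of all tested genes were called. Epithelial or carcinoma markers stayed at 0.585 to 1.41 CPM over 5 genes in all wells. Without the block, 12.6% of all tested genes were higher and 15.2% lower, the shares to set beside the marker counts that follow. Of the monocyte markers 6 of 7 rose, from a summed 276 to 311 CPM to 1339 to 1381 CPM; F13a1 alone held much of that sum, which without it went from 210.7 to 252 CPM to 362 to 399.7 CPM. Of 6 tested dendritic cell markers 3 fell, from a summed 19.2 to 27.8 CPM over 7 genes to 9.36 to 15.1 CPM. Mast cell and basophil markers fell in 5 and rose in 1 of 6, endothelial markers rose in 3 and fell in 1 of 4, and lymphocyte markers fell in 1 of 3 and rose in 0. Of 8 macrophage markers 2 rose (Csf1r and Itgam) and 3 fell (Adgre1, Cd68 and Fcgr1). The neutrophil list had 2 of its 8 genes lower and 0 higher, against 3 lower and 4 higher in the blocked fit. The part of such cells in the results on the members was not tested. In these bulk samples fewer cells of a type and less RNA per cell cannot be told apart.

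The promoters of the 4 tested members with the largest absolute change are shown because they belong to genes that moved in opposite directions: Mfge8 and Axl fell, Gas6 and Mertk rose. Each is the 250 bases before the gene's first listed RefSeq start (GRCm38.p6), 5′ to 3′ on the gene's strand. Capitals mark GGGCGG or its reverse complement, the core of the GC box. Any other start of a gene was not searched. The positions are chr7:25788734-25788983 (minus strand) for Axl, chr2:128698665-128698914 (plus strand) for Mertk, chr8:13494536-13494785 (minus strand) for Gas6 and chr7:79149061-79149310 (minus strand) for Mfge8.
Axl promoter: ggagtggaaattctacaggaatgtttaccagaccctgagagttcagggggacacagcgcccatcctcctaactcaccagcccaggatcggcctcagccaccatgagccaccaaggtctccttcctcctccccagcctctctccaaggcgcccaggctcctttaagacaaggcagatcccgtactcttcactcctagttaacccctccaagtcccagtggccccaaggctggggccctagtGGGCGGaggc
Mertk promoter: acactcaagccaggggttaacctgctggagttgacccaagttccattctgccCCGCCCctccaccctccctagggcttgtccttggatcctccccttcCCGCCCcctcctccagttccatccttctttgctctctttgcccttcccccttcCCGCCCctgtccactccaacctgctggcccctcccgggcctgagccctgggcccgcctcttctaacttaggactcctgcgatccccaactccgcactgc
Gas6 promoter: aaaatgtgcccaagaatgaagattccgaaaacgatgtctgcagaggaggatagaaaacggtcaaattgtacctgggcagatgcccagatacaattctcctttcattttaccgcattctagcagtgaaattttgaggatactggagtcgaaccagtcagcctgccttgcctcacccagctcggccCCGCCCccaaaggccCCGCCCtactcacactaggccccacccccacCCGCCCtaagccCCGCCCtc
Mfge8 promoter: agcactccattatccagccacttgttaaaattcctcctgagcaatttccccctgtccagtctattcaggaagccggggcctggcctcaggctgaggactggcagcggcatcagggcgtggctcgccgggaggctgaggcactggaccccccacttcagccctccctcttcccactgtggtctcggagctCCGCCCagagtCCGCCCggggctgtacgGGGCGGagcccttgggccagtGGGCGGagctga
The GC box core occurred 1 time in the Axl window, 3 times in that of Mertk and 4 times each in those of Gas6 and Mfge8. Pros1 and Dock1, which were not called, had 5 and 3 matches. All 9 members had an entry in the promoter table and at least 1 match in this window, against 32.9% of 27025 promoters of the same length. That share was not matched for base composition. The windows shown were 60% (Axl), 63.6% (Mertk), 54.8% (Gas6) and 65.2% (Mfge8) G or C, against a median of 52% over all promoters. No window of the 9 held the interferon-stimulated response element, searched as 2 GAAA repeats with 2 bases between them, which 3.04% of all promoters hold. None held ACGTG either, a form of the hypoxia response element core, which 16.6% of all promoters hold. The other form of that core, GCGTG, was not searched, and it occurs in the Mfge8 window shown. TTCNNNGAA, the gamma-activated site, was found in 7.18% of all promoters and in 1 member, Pros1, 92 bases before the start. Each motif searched was read on both strands, and matches of different searched motifs did not overlap in the 9 windows. A match is a description of letters, and the absence of a match covers only these 250 bases.

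Of the 9 members, 7 had enough counts to be tested, and 5 of these passed the threshold, 2 higher and 3 lower with conditioned medium. Of all tested genes 27.9% were called, 12.6% higher and 15.2% lower. The groups did not overlap for the same 5 members, against 42.8% of all tested genes. The 5 calls were the same with the replicate number as a block, where 36.3% of all tested genes were called (19.3% lower), and without the wells numbered 3, where 29.1% were. Without scaling beyond the total count 60.8% of all calls were higher, against 45.3% with TMM scaling, and the same counts of members were called in each direction. The members' median log2 fold change was -0.07, against 0.01 for all tested genes. Their values did not move in common: Axl fell while Mertk rose, and Gas6 rose while Pros1 did not pass the test. Elmo1 fell while Dock1 did not pass.

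**Figure D1:**
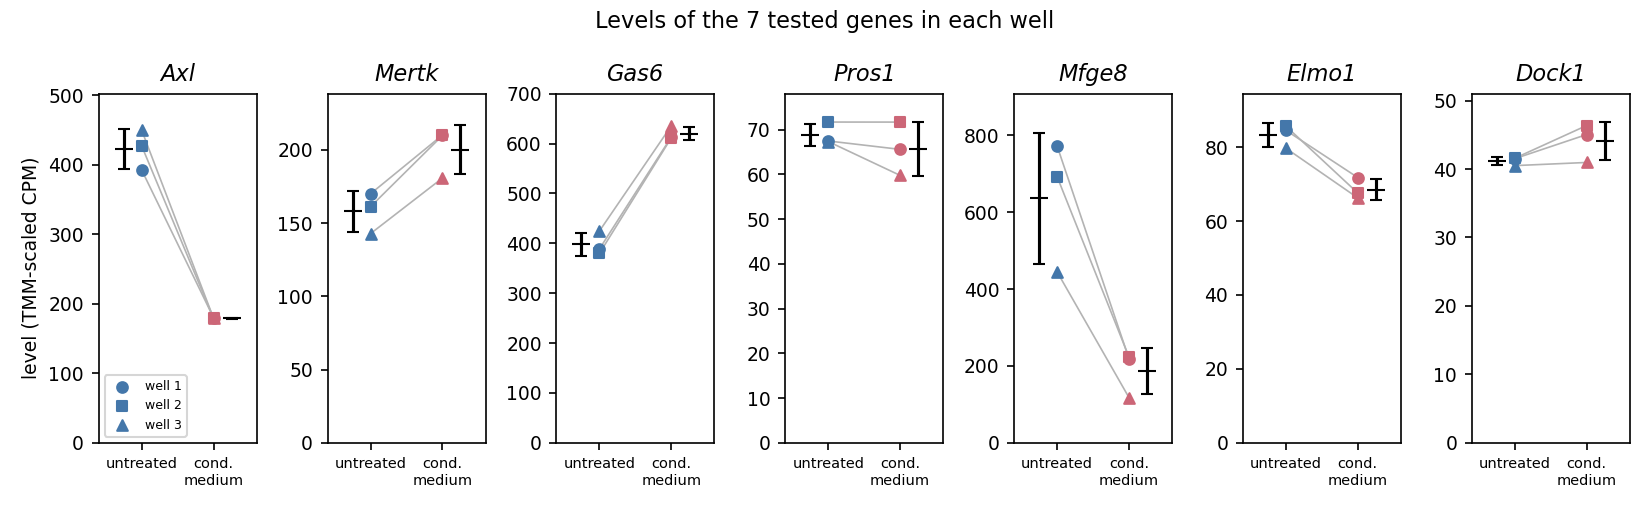
Level of each tested gene in TMM-scaled CPM (vertical axes, each from 0) in 3 untreated wells (blue) and 3 conditioned-medium wells (red); symbols give the well number, grey lines join wells of the same number, and bars give the mean ± SD. Axl and Mfge8 lay lower and Gas6 and Mertk higher in every conditioned-medium well, while Pros1 and Dock1 overlapped.

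Among the receptors, Axl fell and Mertk rose. Axl (ENSMUSG00000002602, chromosome 7, 25757273 to 25788705, GRCm38, minus strand) stood at 392, 427 and 449 CPM in the untreated wells and at 179.7, 179 and 179 CPM in the conditioned-medium wells. The groups were far apart, and the conditioned-medium wells were nearly identical, at 179 ± 0.507 CPM against 423 ± 28.8 CPM (SD, n = 3 per group). Axl was 2.36-fold lower, with a log2 fold change of -1.24 (SE 0.05, edgeR adjusted p = 9.11e-07), which exceeded the absolute change of 96.8% of tested genes.

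Mertk (ENSMUSG00000014361, chromosome 2, 128698956 to 128802894, plus strand) stood at 170.1, 161 and 143 CPM in the untreated wells and at 210.2, 209.9 and 181 CPM in the conditioned-medium wells. Each conditioned-medium well lay above each untreated well, although the lowest of the former and the highest of the latter were close. Mertk rose 1.27-fold, with a log2 fold change of 0.34 (SE 0.08, edgeR adjusted p = 0.00959), exceeding the absolute change of 70.95% of tested genes. Between wells of the same number the rise was even, at 0.31, 0.38 and 0.34, and with the replicate number as a block the adjusted p was 4.96e-06. The call was lost without conditioned-medium replicate 1 (log2 fold change 0.30, edgeR adjusted p = 0.0544).

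Tyro3, the TAM receptor best known from the nervous system (ENSMUSG00000027298, chromosome 2, 119797733 to 119818104), was too scarce to test. It had 0, 2 and 4 counts in the untreated wells and 12, 3 and 2 in the conditioned-medium wells. The groups overlapped, and most of the conditioned-medium counts came from replicate 1, which also had the highest summed stromal markers (103 CPM). Untreated replicate 1 had the next highest stromal sum (71.5 CPM) and 0 Tyro3 counts. The part of stromal cells in these counts was not tested. Summed over wells, Tyro3 had 6 counts (95% exact Poisson interval 2.20 to 13.1) against 17 (9.90 to 27.2), intervals that cover counting error only.

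The more abundant receptor transcript was Axl in untreated and Mertk in conditioned-medium wells. Per kilobase of deposited gene length, which allows levels of different genes to be set side by side, Axl made up 66.5%, 69.5% and 73.0% of the summed TAM receptor level in the untreated wells and 42.4%, 42.3% and 46.0% in the conditioned-medium wells. Mertk made up 26.96% to 33.5% and then 53.98% to 57.7%. The Axl to Mertk ratio was 1.99, 2.28 and 2.71 without conditioned medium and 0.736, 0.734 and 0.852 with it, a 2.985-fold fall of the ratio (exact permutation p = 0.1 with 3 wells per group, two-sided, the smallest this design allows; adjusted p = 0.1 over 3 ratios). The rise of Mertk did not make up for the fall of Axl, since the summed level went from 120.4 ± 2.89 to 81.8 ± 3.96 CPM per kb (SD, n = 3 per group). The deposited length counts all exons of a gene, so these shares shift if wells used transcripts of other lengths. Where it exceeds the length of the transcripts present, the level per kb is too low in every well.

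**Figure D2:**
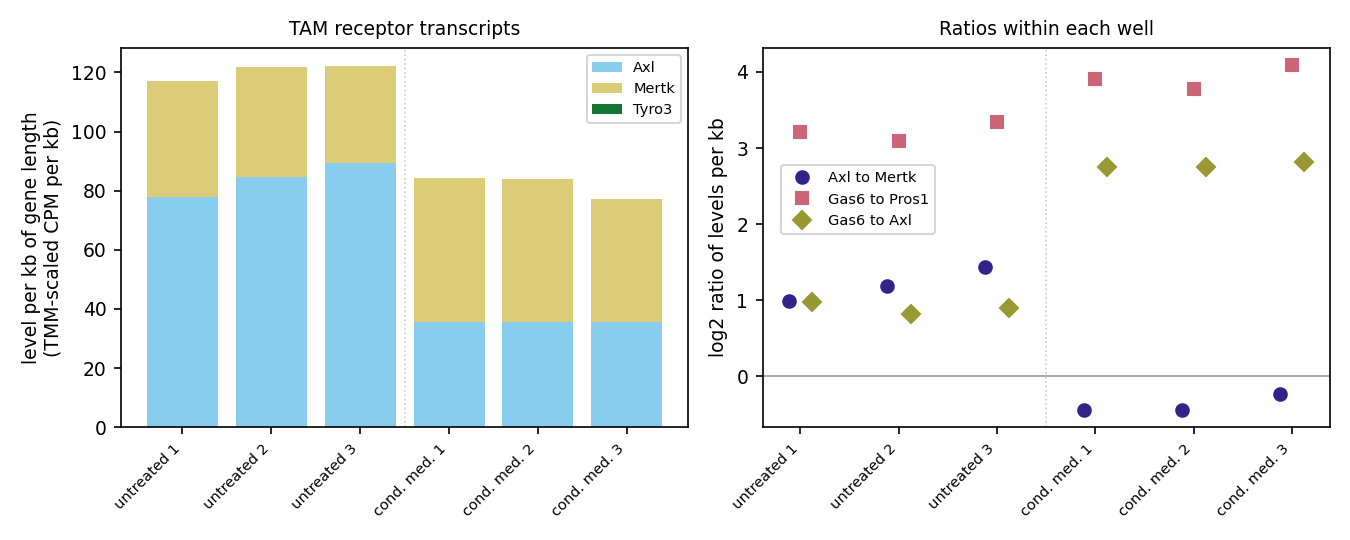
Left, level of Axl, Mertk and Tyro3 per kb of gene length in each well, stacked (CPM per kb; Tyro3 is too low to be seen); right, log2 ratio of levels per kb within each well for the 3 ratios compared. The Axl to Mertk ratio lies above 0 in each untreated well and below 0 in each conditioned-medium well, and both Gas6 ratios are higher with conditioned medium.

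Gas6, the ligand of all TAM kinases, rose while Pros1 did not pass the test. Gas6 (ENSMUSG00000031451, chromosome 8, 13465374 to 13494490, minus strand) stood at 389, 379.9 and 425 CPM in the untreated wells and at 613, 611 and 635.5 CPM in the conditioned-medium wells. The groups were well separated and each varied little, with means of 398 ± 23.7 and 620 ± 13.4 CPM (SD, n = 3 per group). Gas6 rose 1.56-fold, with a log2 fold change of 0.64 (SE 0.05, edgeR adjusted p = 2.78e-05), exceeding the absolute change of 86.6% of tested genes. It shares 34 exon bases with Tmem255b on the opposite strand, a gene with 0 to 6 counts per library.

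Pros1, encoding protein S (ENSMUSG00000022912, chromosome 16, 62854307 to 62929346, plus strand), stood at 67.5, 71.7 and 67.4 CPM in the untreated wells and at 65.6, 71.7 and 59.8 CPM in the conditioned-medium wells. The groups overlapped. Its log2 fold change was -0.07, with a 95% interval of -0.22 to 0.08 (edgeR adjusted p = 0.499), whose upper bound lies below the 0.52 of the lower bound for Gas6. The ratio of Gas6 to Pros1 per kb was 9.24, 8.50 and 10.1 in the untreated wells and 14.99, 13.7 and 17.1 in the conditioned-medium wells (exact permutation p = 0.1, the smallest possible; adjusted p = 0.1). The ratio of Gas6 to Axl per kb rose 3.675-fold, from 1.76 to 1.96 in the untreated wells to 6.74 to 7.02 in the conditioned-medium wells (exact permutation p = 0.1, the smallest possible; adjusted p = 0.1).

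Mfge8, the bridge to alpha v integrins, had the largest change of the 7 tested members (ENSMUSG00000030605, chromosome 7, 79133768 to 79149060, minus strand). It stood at 772, 692.5 and 445 CPM in the untreated wells and at 219, 223 and 118 CPM in the conditioned-medium wells. The groups did not overlap, but wells numbered 3 were the lowest of each group. The means were 637 ± 171 and 187 ± 59.8 CPM (SD, n = 3 in each group), a 3.41-fold fall. Its log2 fold change of -1.77 (SE 0.26, edgeR adjusted p = 0.000853) exceeded the absolute change of 99.1% of tested genes. Within numbers the fall was even, at -1.82, -1.63 and -1.92, and with the replicate number as a block the SE was 0.05 (adjusted p = 1.89e-12). Without the wells numbered 3 the log2 fold change was -1.73 (SE 0.05).

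The other members deviated less with the well number. As deviations from the group mean on the log2 scale, the wells numbered 3 stood at -0.48 (untreated) and -0.61 (conditioned medium) for Mfge8. They stood at -0.14 in both groups for Mertk, and at 0.10 and 0.04 for Gas6. For Axl they stood at 0.09 and -0.002. What the numbers stand for is not given in the labels, and the part of other cells in the level of Mfge8 was not tested. In both groups the wells numbered 3 had the lowest summed markers of dendritic cells (19.2 CPM against 26.6 and 27.8 in untreated wells, 9.36 against 15.1 and 13.3 in conditioned-medium wells). Sums of endothelial, mast cell and basophil, and lymphocyte markers were also lowest there, and those of macrophage and monocyte markers highest.

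**Figure D3:**
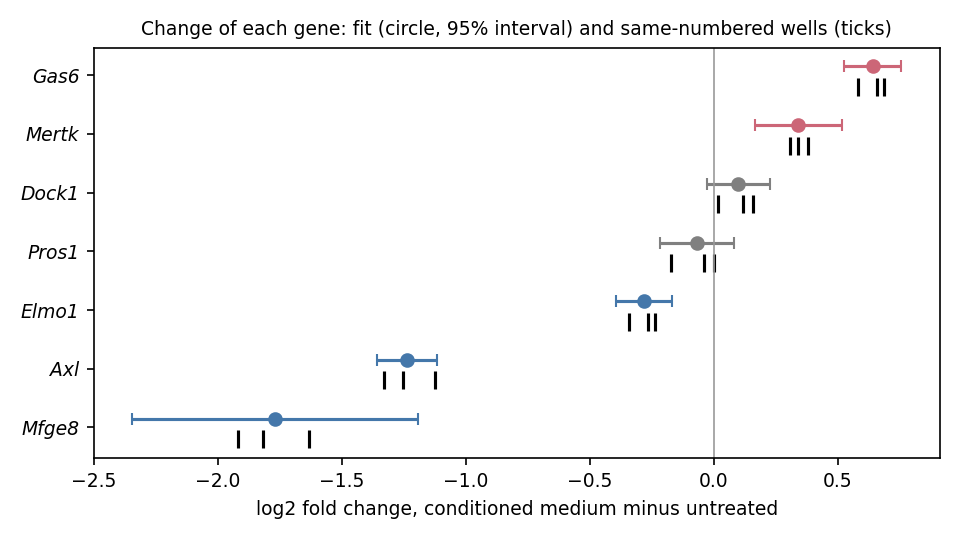
Log2 fold change of each tested gene, conditioned medium minus untreated (horizontal axis): circles give the edgeR estimate with its 95% interval (red higher, blue lower, grey not past the threshold) and ticks the differences between wells of the same number. For Mfge8 the ticks span -1.92 to -1.63, a narrower range than the interval of the fit without the number.

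For the engulfment partners Elmo1 and Dock1 the differences were small. Elmo1 (ENSMUSG00000041112, chromosome 13, 20090596 to 20608353, plus strand) stood at 84.55, 85.7 and 79.7 CPM in the untreated wells and at 71.8, 67.6 and 66.3 CPM in the conditioned-medium wells. The groups did not overlap, and Elmo1 fell by 0.28 on the log2 scale (SE 0.05, edgeR adjusted p = 0.00248), a change of 1.215-fold. This exceeded the absolute change of 65.4% of tested genes. Elmo1 shares 403 exon bases with the antisense gene Gm32036, which had 0 to 3 counts per library.

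Dock1, its partner (ENSMUSG00000058325, chromosome 7, 134670654 to 135173639, plus strand), stood at 41.5, 41.6 and 40.5 CPM in the untreated wells and at 45.04, 46.4 and 40.96 CPM in the conditioned-medium wells. The groups overlapped, and the log2 fold change was 0.10, with a 95% interval of -0.03 to 0.23 (edgeR adjusted p = 0.2296). The paralogs of both genes were singled out after their values were seen. Dock2, the haematopoietic member of the Dock family, had a level of 37.6 ± 0.560 CPM per kb in untreated wells, against 4.42 ± 0.0653 for Dock1, and fell by 0.22 on the log2 scale (SE 0.04, edgeR adjusted p = 0.00284). Dock5 had 4.07 ± 0.0878 CPM per kb. Elmo2 had 14.1 ± 0.178 CPM per kb, against 6.62 ± 0.252 for Elmo1 and 0.898 ± 0.141 for Elmo3, and a log2 fold change of -0.11 (edgeR adjusted p = 0.149). Before division by gene length, Elmo2 and Elmo1 stood closer, at 93.7 and 83.3 CPM in untreated wells. Rac1, a GTPase these complexes activate, had 85.6 ± 4.41 CPM per kb in untreated wells and a log2 fold change of -0.09 (edgeR adjusted p = 0.2403). Its paralog Rac2, also looked up after the values were seen, had 172 ± 13.1 CPM per kb in untreated wells. Rac2 fell by 0.20 on the log2 scale (SE 0.06, edgeR adjusted p = 0.0287).

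Gulp1 (ENSMUSG00000056870, chromosome 1, 44551511 to 44796838, plus strand) was at the edge of detection, with 0 counts in each of the 3 untreated wells and 6, 6 and 2 counts in the conditioned-medium wells. Over the 74643348 counts of the untreated group, the 95% exact Poisson interval of 0 counts reaches 3.69 counts, or 0.0494 CPM. The 14 counts of the conditioned-medium group stood at 0.159 CPM (95% exact Poisson interval 0.0867 to 0.266). These CPM are scaled by the group totals alone, without TMM. Against a floor of 3 counts (0.0402 CPM) the conditioned-medium level lay 3.945-fold and its lower limit 2.16-fold higher. That floor is below the upper limit of 0.0494 CPM, so neither fold is a lower bound. The intervals cover counting error only. It was too low for the filter. Without the filter, edgeR gave an adjusted p of 0.0280, with a fitted fold that rests on the prior count. That fit gave smaller adjusted p-values than the main fit for each called member, for Axl 9.2e-21 against 9.11e-07. Its value for Gulp1 is therefore not on the footing of the other p-values, and DESeq2 gave Gulp1 no adjusted p. The summed stromal markers stood at 71.5, 17.3 and 34.96 CPM in the untreated wells and at 103, 40.8 and 34.4 CPM in the conditioned-medium wells; their part in the Gulp1 counts was not tested.

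Set in order of level per kb, the untreated wells held Gas6 (156 ± 9.31 CPM per kb) and Mfge8 (136 ± 36.4) at the top, with overlapping wells, followed by Axl (83.96 ± 5.73), Mertk (36.5 ± 3.20), Pros1 (16.8 ± 0.607), Elmo1 (6.62 ± 0.252) and Dock1 (4.42 ± 0.0653), each without overlap with the next. In conditioned medium Gas6 stood alone at 243 ± 5.27 CPM per kb. Mertk (46.2 ± 3.89), Mfge8 (39.8 ± 12.7) and Axl (35.6 ± 0.101) came next, where Mfge8 overlapped both of the others while Mertk stayed above Axl in every well. Pros1 (16.1 ± 1.46), Elmo1 (5.45 ± 0.229) and Dock1 (4.73 ± 0.302) closed the order as before. All values are SD with n = 3. The order rests on the deposited gene lengths, from 2548 bases for Gas6 to 12580 for Elmo1.

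The wider efferocytosis machinery was followed in a list of 81 other genes in 7 roles, of which 74 were tested. Of these, 20 rose and 24 fell, or 59.5% called against 27.9% of all tested genes, with a median log2 fold change of -0.03 against 0.01. The list holds many well-expressed macrophage genes, and it was drawn up with earlier results of these data known, so its count is a description.

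Of 17 tested recognition receptors, 1 rose and 5 fell, or 35.3% called against 27.9% of all tested genes. In the fit with the replicate block 4 rose and 7 fell, where 36.3% of all tested genes were called. Stab1, a scavenger receptor that binds phosphatidylserine, rose by a log2 fold change of 1.06 (SE 0.06, edgeR adjusted p = 2.95e-06). Lrp1, the receptor that Gulp1 binds, fell from 2463 ± 128 to 1574 ± 58.8 CPM (log2 fold change -0.65, edgeR adjusted p = 3.16e-05). Itgav, the alpha v chain that Mfge8 engages, fell from 91.4 ± 3.20 to 56.5 ± 1.18 CPM (log2 fold change -0.69, edgeR adjusted p = 7.49e-06). Its beta chain partners, singled out after their values were seen, did not pass: Itgb3 had a log2 fold change of -0.47 (edgeR adjusted p = 0.0966, and 5.67e-05 with the replicate block) and Itgb5 of -0.07 (edgeR adjusted p = 0.565). Mfge8 and the alpha v chain were thus both lower in all conditioned-medium wells.

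Of 10 tested bridging proteins outside the members, 5 rose and 4 fell (90% called, against 27.9% of all tested genes). Thbs1, the thrombospondin that links dying cells to Cd36 and integrins, had a log2 fold change of 3.34 (SE 0.09). Anxa5, a phosphatidylserine-binding annexin, fell by 0.52 on the log2 scale (edgeR adjusted p = 5.15e-05), and Calr, encoding calreticulin, by 0.49 (edgeR adjusted p = 0.000114). Of 5 genes for ligand maturation and receptor shedding, 0 rose and 2 fell (40% called), both near the threshold. Adam17, the protease that sheds Mertk, fell by 0.24 on the log2 scale (edgeR adjusted p = 0.0363), and Vkorc1l1, an enzyme of the vitamin K cycle, by 0.17 (edgeR adjusted p = 0.0499). Both calls were lost under several other settings, Adam17 in 5 and Vkorc1l1 in 9 of 15.

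Of 22 engulfment signalling genes, 7 rose and 4 fell (50% called, against 27.9% of all tested genes). The smallest p-values were those of the lipid transporter genes Abca1 (log2 fold change 0.56, edgeR adjusted p = 0.000115) and Abca7 (0.52, edgeR adjusted p = 0.00158) and of Dock2. The largest change among the called genes, looked up after the values were seen, was that of Bcar1, a scaffold of the Crk and Dock1 pathway (log2 fold change 1.49, edgeR adjusted p = 0.0286), at 0.412 ± 0.187 and 1.16 ± 0.448 CPM. Of 9 genes for attraction to dying cells or for sparing live ones, 2 rose and 5 fell (77.8% called). Among them Sirpa, the receptor for the Cd47 signal that blocks uptake, fell by 0.62 on the log2 scale (edgeR adjusted p = 1.72e-05), Cx3cr1, the fractalkine receptor, by 1.18 (edgeR adjusted p = 5.48e-05), and the sphingosine phosphate receptor gene S1pr1 rose by 0.71 (edgeR adjusted p = 3.21e-05).

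Nuclear receptors known to raise uptake genes were divided as well, with 3 of 6 higher and 2 lower (83.3% called, against 27.9% of all tested genes). Nr1h3, encoding LXR alpha, a known activator of Mertk, stood at 102.5, 112 and 72.3 CPM in the untreated wells and 35.8, 44.8 and 28.4 CPM in the conditioned-medium wells (log2 fold change -1.39, SE 0.18, edgeR adjusted p = 0.000468). Pparg, a regulator of uptake and lipid genes, fell by 1.26 (edgeR adjusted p = 0.000409) and Ppard rose by 0.40 (edgeR adjusted p = 0.00146). Nr1h3 thus moved opposite to Mertk between the groups, while within each group both were lowest in the well numbered 3. Nr1h2, the other LXR gene, had a log2 fold change of 0.03 (edgeR adjusted p = 0.692), at 105.4 ± 6.22 and 107.7 ± 1.39 CPM. A link between these receptors and the level of Mertk was not tested. Of the genes of feedback downstream of TAM kinases, Socs3 rose by 1.73 (edgeR adjusted p = 1.97e-05) and Socs1 fell by 1.07 (edgeR adjusted p = 0.0119).

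**Figure D4:**
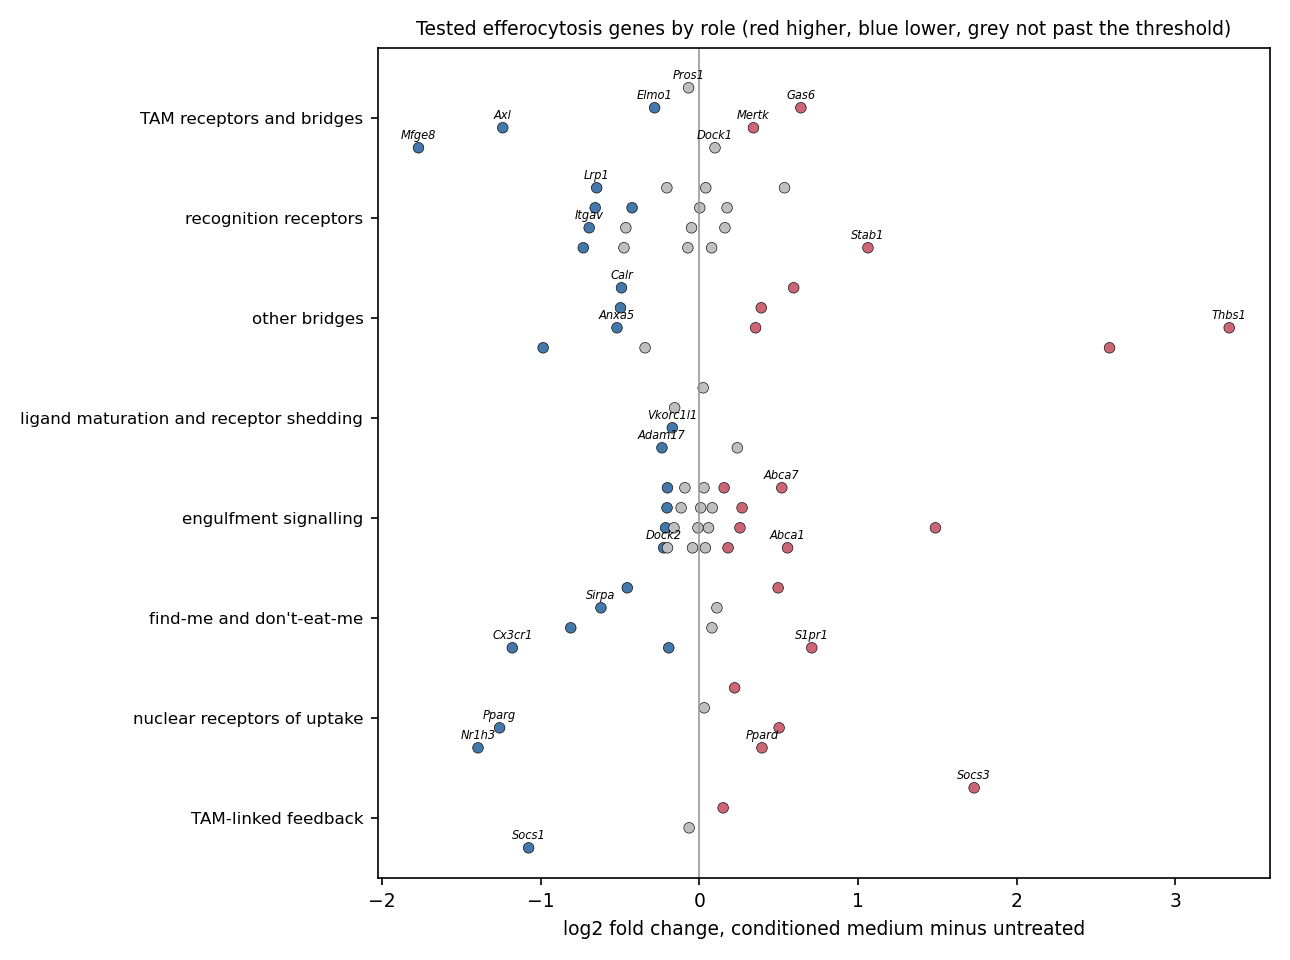
Log2 fold change, conditioned medium minus untreated (horizontal axis), of the tested members (top row) and of tested efferocytosis genes in 7 roles; red is higher, blue lower and grey not past the threshold, and the named genes are labelled. Most roles hold genes on both sides of 0, from Mfge8 at -1.77 to Thbs1 at 3.34.

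Profiles over the 6 wells were compared by the Euclidean distance between log2 levels, each centred on its own mean, among 9336 protein-coding genes with a mean of at least 5 CPM. Nearest to Axl were Lrrc20 (distance 0.10), the nonclassical MHC class I gene H2-Q6 (0.13) and Ndrg1 (0.14). Nearest to Mertk were Capn10 (0.09), Zfp609 (0.10) and Ctsl, encoding cathepsin L (0.10), and nearest to Gas6 were Ugt1a7c (0.06), Dock4 (0.09) and Svil (0.10). H2-Q6 and Ugt1a7c belong to families of near-identical or overlapping genes, so their counts are uncertain. The distances mostly reflect the change between the groups, and so few wells place many genes at similar distances.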

How the data were processed

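Polyadenylated RNA of 6 wells was sequenced. The values are raw counts per gene, which the authors deposited after HISAT2 alignment to GRCm38 and featureCounts, per the submitters' processing notes. Strand setting and annotation release: not given in the sources used here. Gene lengths, in bases, are those the authors deposited. Of 55421 rows, 55240 matched GENCODE M21 by identifier (unmatched: 0.0017% of counts), and 0 rows named no gene. Genes were kept by filterByExpr, scaled by TMM and tested with edgeR 4.0.16 (R 4.3.3, limma 3.58.1) on the group alone, with Benjamini-Hochberg adjustment and a threshold of 0.05. Standard errors came from the F statistic. Depth gave a floor of 3 counts, or 0.0999 to 0.124 CPM per library. The members and lists were chosen with earlier results of these data known. All members were named, with up to 3 genes of smallest p per role; 1 gene the rule names is not reported here. Deviations from group means correlated at 0.328, 0.161 and 0.309 between wells of the same label number (-0.289 to 0.0112 otherwise), so a fit with the number as a block was set beside the main one. Alternatives were RLE or no scaling, DESeq2 1.42.0, limma-voom, robust dispersion, other filters, the block, and leaving out wells. The scripts were tested on simulated data. Promoters are RefSeq's.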

Additional observations from a re-analysis of the deposited data

How the results depend on the processing

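Of 15 alternatives, all kept the direction of each tested member. Axl, Gas6, Mfge8 and Elmo1 stayed past the threshold in each, and Pros1 and Dock1 past it in none. Mertk was lost only without conditioned-medium replicate 1 (0.30, adjusted p 0.0544), which left 1 member higher. Leaving out 1 well gave log2 fold changes of -1.29 to -1.19 for Axl, 0.27 to 0.41 for Mertk and -1.97 to -1.53 for Mfge8, 1 to 2 members higher, and 1146 to 1653 of all tested genes higher, against 1749. With libraries scaled by their totals alone, 2656 genes were higher. With the replicate block 5023 genes were called, against 3861, and no call of a member changed. Without the filter Gulp1 was called higher on 14 counts, in a fit with smaller p-values for the called members, and Tyro3 was not (adjusted p 0.5075). DESeq2 gave neither gene an adjusted p. Leaving out the wells numbered 3, chosen after seeing the data, gave 4080 calls and the same calls of members. Of 300 alternative fits of 20 pathway genes, 286 kept the call, 14 lost it (Adam17, Vkorc1l1) and 0 reversed. Depth limits Tyro3 and Gulp1.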
